A study of Mus musculus with 5 samples.

Results

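Transcripts of 6 genes of the Ly6 family were followed through single bone marrow cells of mice: Ly6a, which encodes the stem cell antigen Sca-1, and Ly6e, Ly6c1, Ly6c2, Ly6d and Ly6g. They were chosen by name and are 6 of the 15287 genes in the deposited table of unique molecular identifiers (UMIs), in which each UMI stands for 1 captured transcript molecule. Cells came from mice of the strain Fgd5CreERT2/+Rosa26Tomato/+, 20 weeks old and untreated, in which a ZsGreen reporter and a tamoxifen-inducible Cre recombinase are expressed from the locus of Fgd5, a gene used to mark hematopoietic stem cells (HSCs). The samples were lineage-negative, CD45.2-positive, c-kit-positive cells (Lin-kit+, 3 libraries called a, b and c), the same cells that also carried ZsGreen (Fgd5+, 1 library), and ZsGreen-positive cells that were in addition Sca1+CD150+CD48neg (HSC-Fgd5+, 1 library). The reporter and the Cre recombinase were present in all 3 groups, so that the groups differ by sort gate and not by genotype.

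Ly6 proteins are small, cysteine-rich molecules that are mostly held at the outside of the cell membrane by a glycosylphosphatidylinositol (GPI) lipid anchor. In blood cells they serve above all as surface markers: antibodies to Sca-1 enrich HSCs, antibodies to Ly6C mark monocytes and other myeloid cells, antibodies to Ly6G mark neutrophils, and Ly6D marks lymphoid progenitors on the way to B cells. Ly6E is more broadly expressed and is, like Sca-1, known as an interferon-induced product.

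The 6 genes lie in 1 stretch of chromosome 15 of the build GRCm38 (mm10) that spans 397 kb, chr15:74762056-75159126. In their order along the chromosome these are Ly6d at chr15:74762056-74763620, Ly6e at chr15:74955051-74959905, Ly6a at chr15:74994877-74998031, Ly6c1 at chr15:75044018-75048830, Ly6c2 at chr15:75108158-75111970 and Ly6g at chr15:75155240-75159126. Ly6e and Ly6g are read from the plus strand and the other 4 from the minus strand, and Ly6i and Ly6k, which are not among the 6, lie between them.

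The libraries held 519 to 6147 cells and 2166655 to 36080242 UMIs, with medians of 3721 to 6567 UMIs per cell. Levels are given as counts per 1000000 UMIs of the library or cell class (CPM). Because the method captures 3′ ends, a transcript gives no more UMIs for being longer and levels were not divided by length. The number of mice is not given, so n counts libraries, and p-values measure the spread between libraries, which may be technical. Between the ZsGreen-positive libraries, which differ in gate, this spread also holds the difference between gates. The barcode suffixes were assigned to the gates through the cell numbers in the paper, and the labels of both ZsGreen-positive samples disagree on which had the HSC gate. Transcripts of the gate antigens set both ZsGreen-positive libraries apart from Lin-kit+: Slamf1, which encodes CD150, was at 35.7 CPM in Fgd5+ and 38.3 in HSC-Fgd5+ against 2.46 ± 0.797 (SD, n = 3) in Lin-kit+, and Cd48 was at 6.24 and 1.85 against 192 ± 5.98. Between the ZsGreen-positive libraries the counting intervals of Slamf1 (30.2 to 42.0 and 30.5 to 47.5 CPM) and of Cd48 (4.07 to 9.14 and 0.503 to 4.73 CPM) overlapped. Cd48 was lower in HSC-Fgd5+ (4 UMIs) than in Fgd5+ (26 UMIs), the direction of the CD48neg gate. With 1 library per gate this difference was not tested, so the assignment rests on the cell numbers. Kit was at 135 and 157 CPM against 28.5 ± 1.62. Across the libraries, 62 barcode sequences occurred in 2 or more of them, and 154 of 12893 cells (1.19%) were called doublets and kept. A filter of at least 1000 UMIs and under 10% mitochondrial UMIs, applied only as an alternative, would have kept 405 of 519 HSC-Fgd5+ cells and 790 of 793 Fgd5+ cells.

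Between the ZsGreen-positive libraries (2, called reporter-positive here) and the 3 Lin-kit+ libraries, Ly6a was higher and Ly6e, Ly6c1, Ly6c2 and Ly6d were lower. Ly6g did not pass the test. With edgeR's quasi-likelihood test and Benjamini-Hochberg adjustment over 11991 genes, 5 of the 6 members were past an adjusted p of 0.05, and so were 63.1% of all genes tested, 32.7% as higher and 30.4% as lower in the reporter-positive libraries. When libraries were scaled by their totals instead of by trimmed means (TMM), 54.9% of genes were called higher and 16.6% lower, and the median log2 difference of all genes moved from 0.068 to 0.60. With library totals 71.5% of genes were called in all, and with DESeq2 46.9% of 14997 (22.5% higher and 24.4% lower). The directions of the 6 members were the same in all 3 fits.

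**Figure D1:**
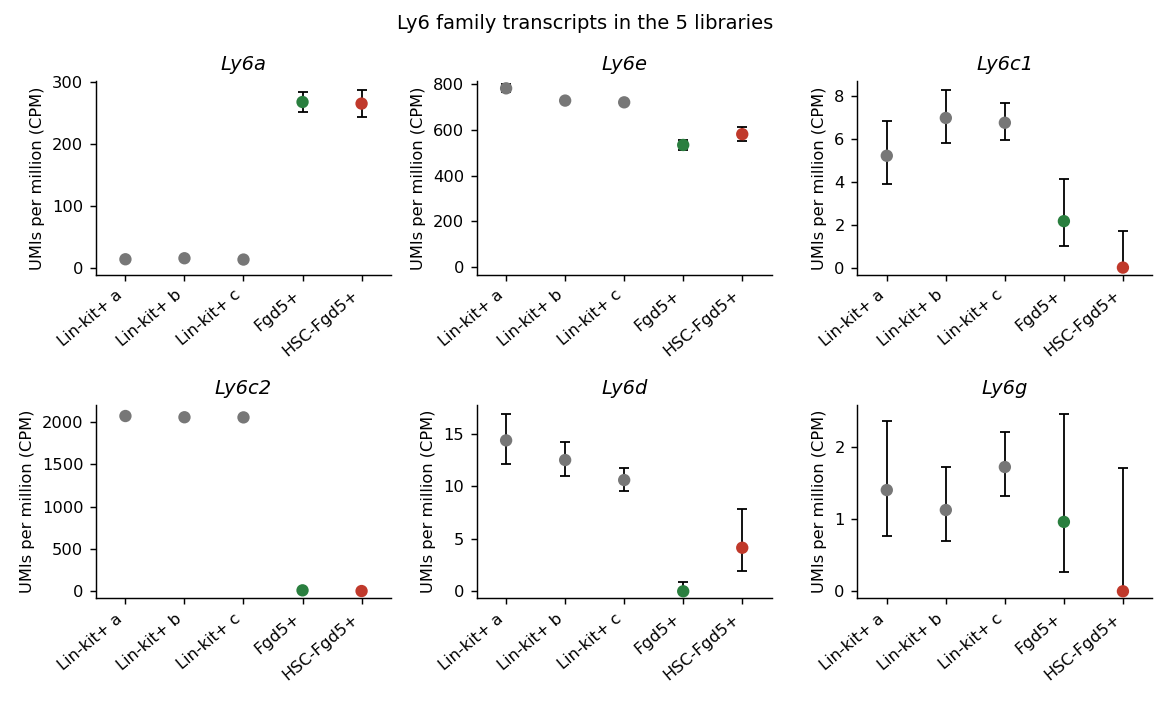
Level of each Ly6 gene, in CPM, in the 3 Lin-kit+ libraries (grey), the Fgd5+ library (green) and the HSC-Fgd5+ library (red), with exact 95% Poisson intervals that cover counting error only. Ly6a lies near 265 in both reporter-positive libraries and at most at 15.04 in Lin-kit+, while Ly6c2 lies above 2050 in Lin-kit+ and at most at 11.0 in the others.

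Ly6a was the member that rose. It was at 13.4, 15.04 and 12.9 CPM in Lin-kit+ libraries a, b and c (134, 281 and 466 UMIs), at 267 CPM in Fgd5+ (1113 UMIs) and at 264 CPM in HSC-Fgd5+ (573 UMIs). All Lin-kit+ values were far below both reporter-positive values, which were 19.3-fold higher on average in CPM, that is by library totals. The groups did not overlap, in either direction, for 82.4% of all genes tested. With TMM scaling the log2 difference was 3.73 (SE 0.096, adjusted p = 1.2e-06). Here and below, SE is the log2 difference, without its sign, divided by the square root of the test's F statistic. With libraries scaled by their totals the log2 difference of Ly6a was 4.27, so that its size depends on the scaling. Sca-1 protein was part of the HSC-Fgd5+ gate, but Fgd5+ cells were sorted without it. The level in HSC-Fgd5+ was 0.990 times that in Fgd5+, with an exact interval of 0.894 to 1.10 that covers counting error only, and each gate has 1 library, so no test was made between them.

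Ly6a UMIs were present in 62.4% of Fgd5+ cells and 51.3% of HSC-Fgd5+ cells, against 4.18%, 4.05% and 4.64% of the cells of Lin-kit+ a, b and c. After every cell was thinned to 1000 UMIs, which left out 8 cells each of library b and HSC-Fgd5+, the shares were 25.7% and 20.5% against 1.27%, 1.59% and 1.68%. Erythroid-like cells of the Lin-kit+ libraries, which served as a reference for free RNA in those libraries, had a Ly6a UMI in 0.897% of cells (0.4995% after thinning) at a median depth of 3184 UMIs, against 4346 in Fgd5+ and 3721 in HSC-Fgd5+. The shares over all Lin-kit+ cells were above this reference. It does not measure free RNA in the reporter-positive libraries, where Ly6a is more abundant. There, the 13 Fgd5+ cells outside the HSC-like clusters described next held no Ly6a UMI at a median depth of 7780 UMIs, which allows up to 29.0 CPM, and 1 of the 7 such cells of HSC-Fgd5+ held 6.

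Most reporter-positive cells, 780 of 793 in Fgd5+ and 512 of 519 in HSC-Fgd5+, fell into clusters called HSC-like, since Procr, Hlf, Mecom and other HSC markers were raised there. Cells were clustered with all Ly6 genes and Fgd5 left out. In the HSC-like cells of Fgd5+, the middle cell held 1 Ly6a UMI, 36.5% held none and the highest held 16. In those of HSC-Fgd5+, the middle cell also held 1, 48.2% held none and the highest held 13. Ly6a transcripts were therefore counted in only part of the cells of each gate at this depth. A single Ly6a level in all HSC-like cells would by itself leave 29.5% of them without a UMI in Fgd5+ and 40.4% in HSC-Fgd5+. A cell without a Ly6a UMI was thus not read as a cell without expression.

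The HSC-like cells formed a large cluster and a small one whose cells also carried transcripts of Mki67, a marker of dividing cells. In Fgd5+, Ly6a was at 303 CPM (285 to 322) in the 717 cells of the large cluster and at 119 CPM (94.0 to 149) in the 63 cells of the small one. In HSC-Fgd5+ it was at 297 CPM (273 to 323) in 480 cells and at 87.6 CPM (58.2 to 127) in 32 cells. The Ly6a level was thus lower in the small cluster of both libraries. Counted per cell, the difference was smaller, with 1.44 against 1.22 Ly6a UMIs in Fgd5+ and 1.12 against 0.875 in HSC-Fgd5+, since cells of the small cluster held a median of 9509 UMIs over all libraries and those of the large one 3967. Mki67 itself was at 291 and 338 CPM in the small cluster and at 3.80 and 3.86 in the large one.

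**Figure D2:**
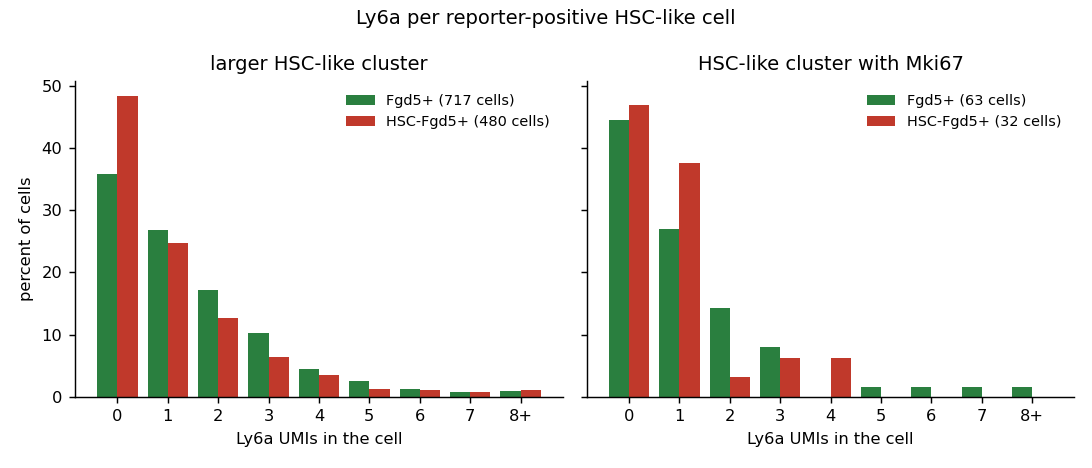
Percent of reporter-positive HSC-like cells (y axis) with a given number of Ly6a UMIs (x axis, 8 or more in the last bin), in Fgd5+ (green) and HSC-Fgd5+ (red), for the large cluster and for the small one with Mki67. The bin of 0 UMIs is the highest in every series, and few cells lie beyond 4 UMIs.

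Among Lin-kit+ cells, 38 cells were HSC-like, and Ly6a in them was at 177, 463 and 302 CPM in libraries a, b and c (8, 14 and 9 UMIs in 9, 16 and 13 cells). HSC-like cells of Fgd5+ and HSC-Fgd5+ were at 274 and 266 CPM, inside the range of the 3 Lin-kit+ values, and the few cells of each Lin-kit+ library leave wide counting error.

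Ly6e was at 780, 727 and 719 CPM in Lin-kit+ a, b and c and at 534 and 581 CPM in Fgd5+ and HSC-Fgd5+. The reporter-positive values were below all Lin-kit+ values, as for 20.6% of all genes tested. The log2 difference was -0.95 (SE 0.076, adjusted p = 5.1e-05) and was -0.41 (adjusted p = 0.0024) with libraries scaled by their totals, so that its size depends on the scaling. Ly6e was 1.09 times higher in HSC-Fgd5+ than in Fgd5+, with a counting interval of 1.01 to 1.17 and no replicate of either gate. In the HSC-like cells of Lin-kit+ a, b and c it was at 487, 596 and 772 CPM, a range that includes the 526 and 583 CPM of the HSC-like cells of Fgd5+ and HSC-Fgd5+.

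Ly6c2, which encodes the Ly6C antigen of myeloid cells, showed the largest fall of the members. It was at 2068, 2053 and 2051 CPM in Lin-kit+ a, b and c, from 20677, 38357 and 74016 UMIs, and at 11.0 and 2.77 CPM in Fgd5+ and HSC-Fgd5+, from 46 and 6 UMIs. The Lin-kit+ libraries lay close together and the groups did not overlap. This was the case for 82.4% of all genes tested in either direction, and for 20.6% with the reporter-positive libraries lower. The log2 difference was -8.56 (SE 0.37, adjusted p = 4.8e-06). The UMIs left in the reporter-positive libraries came mainly from few cells: 42 of the 46 in Fgd5+ were in 4 cells outside the HSC-like clusters, which had been placed with monocyte-like, early neutrophil-like, late neutrophil-like and dendritic-like cells. All 6 in HSC-Fgd5+ were in 2 such cells, 1 monocyte-like and 1 T or NK-like. The 780 HSC-like cells of Fgd5+ held 4 Ly6c2 UMIs (0.984 CPM, 0.268 to 2.52) and the 512 of HSC-Fgd5+ held none, which allows up to 1.41 CPM. Without the 20 reporter-positive cells outside the HSC-like clusters, the log2 difference was -12.16, a value that depends on the prior count since 1 library is then at 0.

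Ly6c1 is a close copy of Ly6c2 next to it on the chromosome, and its transcripts were much rarer. It was at 5.20, 6.96 and 6.74 CPM in Lin-kit+ a, b and c (52, 130 and 243 UMIs), at 2.16 CPM in Fgd5+ (9 UMIs) and at 0 in HSC-Fgd5+. The reporter-positive libraries were lower than all Lin-kit+ libraries, as for 20.6% of all genes tested, with a log2 difference of -2.72 (SE 0.54, adjusted p = 0.0037). It was -2.10 without HSC-Fgd5+ and, since the remaining library is then at 0, a prior-dependent -9.77 without Fgd5+. With 1 reporter-positive library left out, here and for the genes below, the spread comes from the Lin-kit+ libraries alone and the remaining library is assumed to vary like them.

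The promoters of both genes and of Ly6g are shown because these neighbours differ so widely in level. They run from 250 bases before to 50 bases after the transcription start in RefSeq (GRCm38.p6), whose table had entries for 3 of the 6 members. Capitals mark bases that differ from, or have no partner in, the promoter of Ly6c2, or in Ly6c2 that of Ly6c1. Ly6c1 is from chr15:75048788-75049087 and Ly6c2 from chr15:75111922-75112221, both on the minus strand, and Ly6g is from chr15:75155011-75155310 on the plus strand.
Ly6c1: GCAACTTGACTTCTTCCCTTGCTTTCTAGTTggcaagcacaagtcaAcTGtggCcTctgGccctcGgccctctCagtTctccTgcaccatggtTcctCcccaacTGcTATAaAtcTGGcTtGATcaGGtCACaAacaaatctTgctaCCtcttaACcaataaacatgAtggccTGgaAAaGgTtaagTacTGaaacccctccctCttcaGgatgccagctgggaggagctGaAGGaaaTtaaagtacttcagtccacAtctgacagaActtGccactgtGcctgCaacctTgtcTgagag
Ly6c2: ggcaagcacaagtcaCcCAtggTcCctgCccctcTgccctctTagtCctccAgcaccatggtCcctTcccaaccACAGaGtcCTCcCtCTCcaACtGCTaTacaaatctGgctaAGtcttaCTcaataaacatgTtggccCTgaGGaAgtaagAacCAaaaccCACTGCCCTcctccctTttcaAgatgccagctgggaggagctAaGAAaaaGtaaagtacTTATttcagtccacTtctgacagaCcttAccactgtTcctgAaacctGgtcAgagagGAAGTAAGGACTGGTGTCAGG
Ly6g: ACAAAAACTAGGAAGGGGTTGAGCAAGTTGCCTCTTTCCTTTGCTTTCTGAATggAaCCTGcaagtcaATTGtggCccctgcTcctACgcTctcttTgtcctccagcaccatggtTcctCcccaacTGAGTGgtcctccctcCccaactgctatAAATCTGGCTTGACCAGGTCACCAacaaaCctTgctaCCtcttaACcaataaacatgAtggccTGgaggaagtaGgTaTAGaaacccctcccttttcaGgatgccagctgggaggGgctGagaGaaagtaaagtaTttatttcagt

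Over the bases that could be aligned, the promoters of Ly6c1 and Ly6c2 were 78.2% identical (208 of 266), those of Ly6c1 and Ly6g 84.5% and those of Ly6c2 and Ly6g 80.7%. In a search of both strands, the gamma-activated site TTCNNNGAA was not found in any of the 3 windows, and 8.30% of 32851 RefSeq promoters of this length hold it. The letters GAGGAAG, a core sequence bound by the myeloid factor PU.1, occurred 2 times in Ly6c2, 1 time in Ly6g and not in Ly6c1, and 13.6% of all promoters hold it. A match only describes the letters of the window.

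The transcript ends of Ly6c1 and Ly6c2 are nearly identical. Over the last 500 bases of their transcripts in GENCODE M21, where 3′ reads fall, 484 of 493 aligned bases were identical (98.2%), and 27 of 403 windows of 98 bases of Ly6c2 occurred unchanged in a Ly6c1 transcript, so that most reads of this length hold at least 1 base that tells the genes apart. Ly6a, the next closest, was 87.2% identical to Ly6c2 and shared no such window. Since few bases separate the genes, the count of Ly6c1 in cells rich in Ly6c2 is uncertain. For every 100 Ly6c2 UMIs there were 0.330 Ly6c1 UMIs in monocyte-like cells (interval 0.288 to 0.376), 0.343 in early neutrophil-like cells (0.263 to 0.439) and 0.301 in late neutrophil-like cells (0.230 to 0.386). This ratio was about the same in each class with many Ly6c2 UMIs, and whether misassigned reads gave it was not tested. In Fgd5+ the ratio was 19.6 (8.42 to 40.5). All 9 Ly6c1 UMIs of Fgd5+ were in 8 HSC-like cells, none of which held a Ly6c2 UMI, and the HSC-like cells of that library held 4 Ly6c2 UMIs in all.

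**Figure D3:**
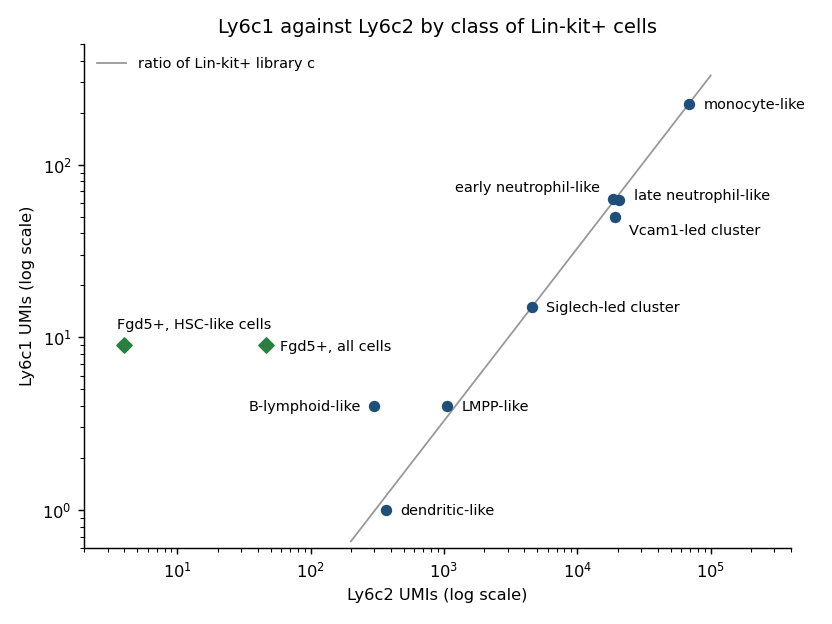
Ly6c1 UMIs (y axis) against Ly6c2 UMIs (x axis), both on log scales, for each class of Lin-kit+ cells with a Ly6c1 UMI (blue) and for the Fgd5+ library, all cells and HSC-like cells (green). The myeloid classes follow the line of 0.328 Ly6c1 UMIs per 100 Ly6c2 UMIs measured over library c, and the Fgd5+ points, with 9 Ly6c1 UMIs against 46 and 4 Ly6c2 UMIs, lie above it.

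Ly6d was at 14.4, 12.5 and 10.6 CPM in Lin-kit+ a, b and c, at 0 in Fgd5+ and at 4.15 CPM in HSC-Fgd5+. Its 9 UMIs in HSC-Fgd5+ were all in 1 cell, which had been placed with the lymphoid-primed multipotent-like cells, and no HSC-like cell of either library held one. The log2 difference was -3.60 (SE 0.70, adjusted p = 0.0034) but did not pass with DESeq2 (-3.28, adjusted p = 0.073). It was -2.14 without Fgd5+ and a prior-dependent -10.78 without HSC-Fgd5+.

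Ly6g was at 1.40, 1.12 and 1.72 CPM in Lin-kit+ a, b and c (14, 21 and 62 UMIs), at 0.960 CPM in Fgd5+ and at 0 in HSC-Fgd5+. The 4 UMIs of Fgd5+ were in 1 late neutrophil-like cell that also held 7 Ly6c2 UMIs. The log2 difference of -1.73 (SE 0.69) did not pass (adjusted p = 0.062). It fell under the threshold without Fgd5+ (adjusted p = 0.035), where 1 reporter-positive library at 0 UMIs is left, and without the reporter-positive cells outside the HSC-like clusters (adjusted p = 0.0038), where both are at 0.

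Lin-kit+ cells were then split into classes named from marker genes, with 2 clusters left without a class name and called by their leading genes Vcam1 and Siglech. The Vcam1-led cluster expressed 8 of 8 early neutrophil markers and the Siglech-led cluster 6 monocyte markers. The levels below are descriptions over the 3 libraries, without a test. A class of 25 cells, called B-lymphoid-like but led by genes of antibody-secreting cells, held the highest mean level of 5 of the 6 members. Ly6g was highest in late neutrophil-like cells. For Ly6e, Ly6c2 and Ly6c1 the range of the B-lymphoid-like class overlapped with that of the next class.

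For Ly6c1 the first place rested on 4 UMIs in 2 of the 25 cells, at 194, 46.3 and 0 CPM in libraries a, b and c, and without library a the level of the class was 16.9 CPM in place of 53.6. Most Ly6c1 UMIs, 226 of 425 (53.2%), were in monocyte-like cells, at 8.08, 13.5 and 13.03 CPM. Early neutrophil-like cells (8.17 ± 1.10 CPM), the Vcam1-led cluster (8.06 ± 3.06) and late neutrophil-like cells (6.37 ± 1.04) followed with overlapping ranges, and the Siglech-led cluster was below them at 3.30 ± 0.496 CPM. No Ly6c1 UMI was counted in erythroid-like, megakaryocyte-like, mast or basophil-like, T or NK-like or HSC-like cells of Lin-kit+.

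**Figure D4:**
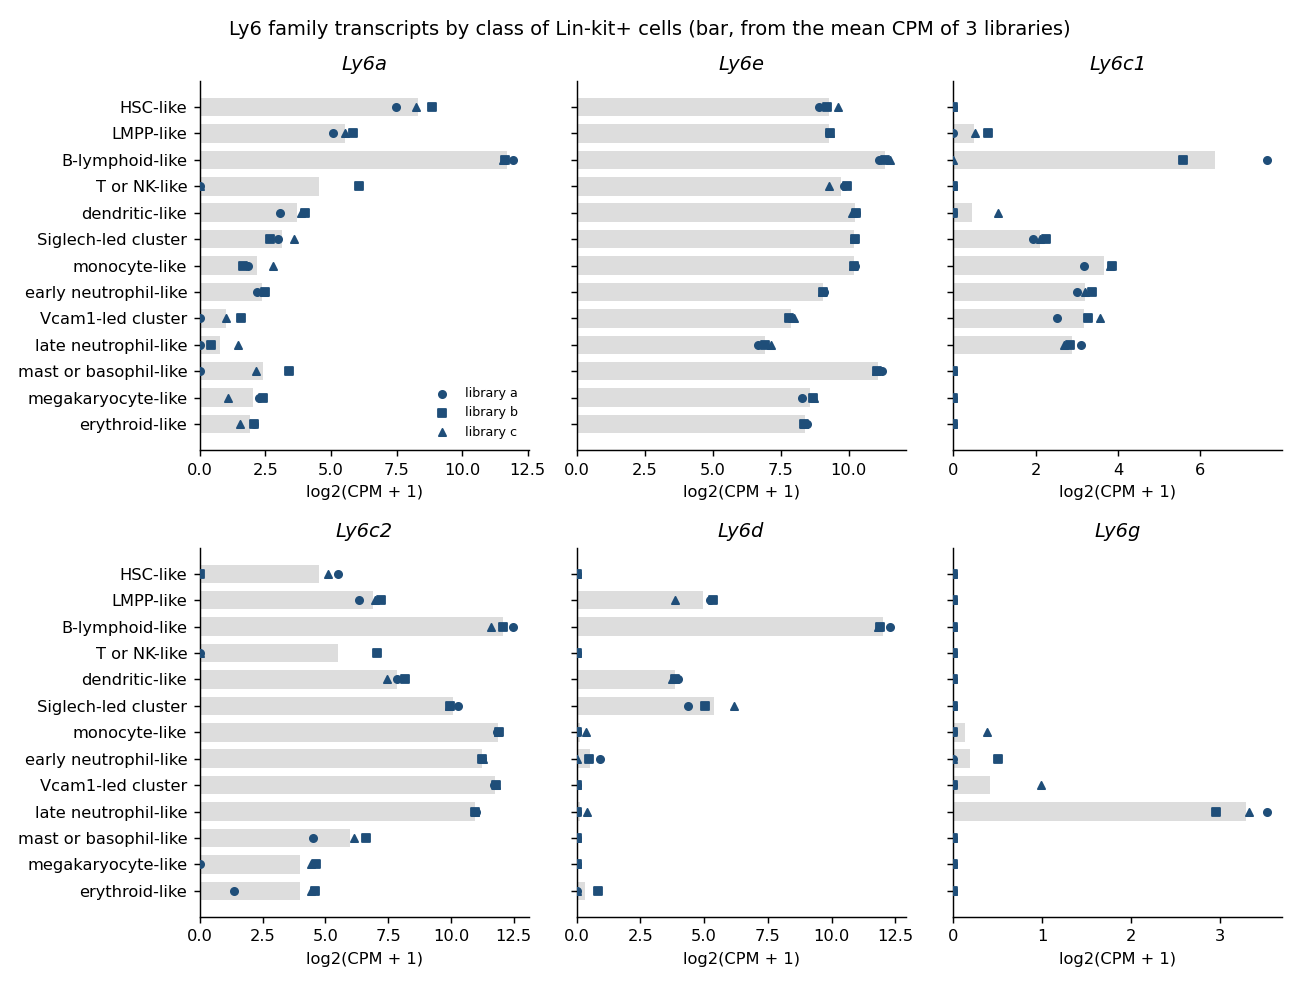
Level of each Ly6 gene, as log2(CPM + 1), in the 13 classes of Lin-kit+ cells. Bars show the mean CPM of 3 libraries on this scale and symbols the single libraries, and the 2 clusters without a class name are named by a leading gene. Ly6a and Ly6d stand out in B-lymphoid-like cells, Ly6e is present in all classes, Ly6c2 is high in the myeloid classes and Ly6g in late neutrophil-like cells.

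The B-lymphoid-like class rested on Cd79a, Cd79b, Vpreb3 and Blnk and was led by Jchain and Mzb1, genes of antibody-secreting cells. Jchain was at 151293 CPM, against 5.61 over the other Lin-kit+ cells. Xbp1 and Sdc1, also genes of antibody-secreting cells, were at 1165 and 295 CPM against 52.6 and 2.20. The class was therefore not read as progenitors of B cells. Its 25 cells, 4, 9 and 12 in libraries a, b and c, made up 0.216% of Lin-kit+ cells and held 27.5% of all Lin-kit+ Ly6a UMIs (242 of 881) and 38.5% of all Ly6d UMIs (293 of 761). Ly6a was at 3955, 3151 and 3001 CPM in a, b and c, and every one of the 25 cells held at least 1 Ly6a UMI and at least 1 Ly6d UMI. The Ly6a level was 9.88 CPM over all other Lin-kit+ cells. Ly6d was at 4992, 3753 and 3585 CPM, against 7.23 over the other cells. Kit, whose product was selected for in the sort, had 1 UMI in these cells, or 13.4 CPM with an interval of 0.339 to 74.6 that includes the 28.2 CPM of the other Lin-kit+ cells, so that their Kit level was not resolved at this depth. Without this class, Ly6a was at 7.31, 11.4 and 9.79 CPM and Ly6d at 6.71, 8.20 and 6.88 CPM in the 3 libraries. The log2 difference of Ly6a between reporter-positive and Lin-kit+ libraries was then 4.25, and that of Ly6d -2.83 (adjusted p = 0.012).

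After B-lymphoid-like and HSC-like cells, Ly6a was highest in lymphoid-primed multipotent-like cells, at 44.8 ± 12.0 CPM (SD, n = 3). These cells formed 2 clusters that differed in Ly6a. In the one led by Dntt (998 cells), which encodes the terminal transferase of lymphoid progenitors, Ly6a was at 80.7, 99.6 and 93.4 CPM in a, b and c. In the other (790 cells), which had Cd34 among its leading genes, it was at 1.25, 14.6 and 7.91 CPM. The clusters did not overlap in Ly6a. The cluster with Cd34 was named from 4 markers of the class, Flt3, Satb1, Cd27 and Wfdc17, against 8 in the Dntt-led one. None of the 4 was among its leading genes, and Dntt was at 51.4 CPM against 1080. Its name is thus less well supported, and the mean of the class covers unlike clusters. T or NK-like cells (2 UMIs in 1 of 33 cells), dendritic-like cells at 12.0 ± 4.12 CPM and the Siglech-led cluster at 7.81 ± 3.01 CPM followed, with overlapping ranges. After thinning, 0.462% of monocyte-like and 0.622% of early neutrophil-like cells held a Ly6a UMI, near the 0.4995% of erythroid-like cells (5 cells, interval 0.214 to 1.16). Before thinning the shares were 2.66% and 2.84% against 0.897%, at median depths of 6601 and 6288 UMIs against 3184. Late neutrophil-like cells were below the erythroid-like ones, at 0.585% and a median of 5138 UMIs. These low levels were not read as expression, and their source was not tested.

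In the Dntt-led cluster, 244 cells held only a Ly6a UMI, 40 only a Ly6d UMI and 7 both, where independent detection would give 11.8. Over all lymphoid-primed multipotent-like cells 8 held both, where independent detection would give 7.49. These counts were not read as exclusion of one gene by the other. Ly6d was at 92.3, 71.2 and 30.5 CPM in libraries a, b and c of the Dntt-led cluster. Dntt was at 382, 753 and 854 CPM in the cells of a, b and c with Ly6a only, and at 2291, 3114 and 3493 CPM in those with Ly6d only, higher in every library. Il7r, the receptor for the lymphoid growth factor interleukin 7, was at 15.7 CPM (8.34 to 26.8) with Ly6a only and at 148 CPM (96.9 to 217) with Ly6d only. Procr and Hlf, which mark immature cells, had 35 and 115 UMIs in the 244 cells with Ly6a only and 0 and 1 UMI in the 40 cells with Ly6d only. In the 7 cells with both, Dntt was at 3143 CPM (2557 to 3823), and they held too few UMIs to compare Procr and Hlf. These 4 genes took part in the clustering, and the cells were split by single UMIs, so the values are a description.

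Ly6d was otherwise found in the Siglech-led cluster at 40.8 ± 26.9 CPM and in dendritic-like cells at 13.4 ± 1.19 CPM. Of the 228 Ly6d UMIs of the Siglech-led cluster, all came from 25 of its 721 cells. Siglech and Ly6d are both used as markers of plasmacytoid dendritic cells and their precursors. In monocyte-like, neutrophil-like and erythroid-like cells Ly6d was at most at 0.434 CPM, and megakaryocyte-like, mast or basophil-like, T or NK-like and HSC-like cells held no Ly6d UMI.

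Ly6e had UMIs in every class. Apart from B-lymphoid-like cells (2582 ± 372 CPM), it was highest in mast or basophil-like cells, at 2376, 2116 and 2076 CPM in a, b and c, and these 2 classes overlapped. Dendritic-like cells (1193 ± 69.7), the Siglech-led cluster (1188 ± 27.0) and monocyte-like cells (1173 ± 24.3) came next and could not be ordered. Lymphoid-primed multipotent-like cells were at 629 ± 5.70 CPM and erythroid-like cells at 336 ± 13.3 CPM. Late neutrophil-like cells were lowest, at 121 ± 19.7 CPM.

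Ly6c2 was at 3730 ± 81.4 CPM in monocyte-like cells, 3472 ± 139 in the Vcam1-led cluster, 2428 ± 23.5 in early neutrophil-like and 1984 ± 47.3 in late neutrophil-like cells, and these ranges did not overlap. The monocyte-like class holds 2 clusters on either side of the Vcam1-led one, at 4471 ± 133 and 3007 ± 81.6 CPM, so its place in this order holds only for the class as a whole. B-lymphoid-like cells were at 5705, 4263 and 3080 CPM in a, b and c and overlapped with monocyte-like cells. The Siglech-led cluster was at 1071 ± 157 CPM, and 71.8% of its cells held a Ly6c2 UMI. Erythroid-like cells held a Ly6c2 UMI in 7.78% of cells, 2.20% after thinning, at 1.57, 22.8 and 20.6 CPM in a, b and c, a low level that was not read as expression and whose source was not tested. The Dntt-led cluster, at 2.81% after thinning, was close to this share and the cluster with Cd34, at 12.2%, was above it. Ly6a and Ly6c2 thus differed in opposite directions between the multipotent-like clusters.

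Along the neutrophil clusters, Ly6e, Ly6c2 and Ly6g followed different courses. In an order set from their markers, from early neutrophil-like cells (Elane, Mpo) through the Vcam1-led cluster and the late neutrophil-like cluster led by Camp to the one led by Ltf, Ly6e was at 534 ± 13.2, 236 ± 17.5, 123 ± 8.42 and 57.2 ± 7.94 CPM. It was lower at each place in the order, without overlap between libraries. Ly6c2 was at 2428 ± 23.5, 3472 ± 139, 2482 ± 18.0 and 1409 ± 15.7 CPM, highest in the Vcam1-led cluster. Ly6g was at 0.140 ± 0.242, 0.327 ± 0.567, 2.92 ± 0.885 and 16.7 ± 3.69 CPM, highest in the cluster led by Ltf. Of the 97 Ly6g UMIs in Lin-kit+ cells, 90 were in late neutrophil-like cells, 4.10% of which held one. A further late neutrophil-like cluster of 93 cells (1, 25 and 67 in libraries a, b and c), with a median of 9537 UMIs, was left out of this order. Ltf, Camp, Ngp and Lcn2 were raised in it, and it had Ly6e at 572 ± 61.2 CPM. The fall of Ly6e therefore holds only for the clusters ordered here.

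The 16 clusters with at least 50 Lin-kit+ cells leave out the B-lymphoid-like, T or NK-like and HSC-like cells. Over these clusters, the genes whose log2(CPM + 1) followed a member most closely were taken from 8947 genes. These were Gpr171 (r = 0.904), Med13l and Flt3 for Ly6a, and Itm2c (r = 0.969), Lgals1 and Ppib for Ly6e. For Ly6c1 they were Ly6c2 (r = 0.934), Pgd and Mgl2. For Ly6c2 they were Mtus1 (r = 0.959), Gpc1 and Mefv, and for Ly6d N4bp3 (r = 0.881), Mgat1 and Flt3. Flt3, a cytokine receptor of early lymphoid and dendritic progenitors, was thus among those closest to both Ly6a and Ly6d. Between the members, r was 0.760 for Ly6a and Ly6d and, lowest of all pairs, -0.733 for Ly6e and Ly6g. The latter rests on few clusters, as 90 of the 97 Ly6g UMIs of Lin-kit+ cells were in late neutrophil-like cells. The clusters share libraries and differ in depth, so these values carry no test, and Ly6g was left out of the search for having under 100 UMIs.

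Other genes of the Ly6 and uPAR superfamily were compared between the same libraries. Of 41 listed, 14 were in the table and 7 passed the filter on low counts, of which 3 were higher and 4 lower in the reporter-positive libraries, with a median log2 difference of -1.40 against 0.068 over all genes. Of all genes tested 63.1% were called, and with 7 genes a count of calls says little. With library totals 3 were higher and 3 lower, since Plaur, the receptor of urokinase, lost its call. Cd59a, which encodes an inhibitor of complement, was at 28.5 and 19.8 CPM in Fgd5+ and HSC-Fgd5+ and at 6.24 ± 0.624 in Lin-kit+ (log2 difference 1.44, SE 0.19, adjusted p = 5.3e-04), and its copy Cd59b and Lynx1 were also higher. Cd177, a neutrophil surface protein, was at 1.20 and 0 CPM against 42.6 ± 6.41 (log2 difference -6.28, adjusted p = 2.2e-05), and Ly6i and Ly6k were lower.

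Interferon-stimulated genes were listed because Ly6a and Ly6e are known to respond to interferon. Of the 39 listed, 38 were tested, and 30 were higher and 2 lower in the reporter-positive libraries, where 32.7% of all genes were called higher and 30.4% lower, with a median log2 difference of 1.40 against 0.068 over all genes. Iigp1, an immunity-related GTPase, was at 99.1 and 97.8 CPM against 1.16 ± 0.349 in Lin-kit+, and Ifit3 and Ifit1, which bind foreign RNA, had log2 differences of 5.07 and 4.04. Psmb8 and Psmb9, subunits of the immunoproteasome, were lower by this fit (log2 difference -0.74 and -0.27). With library totals 36 were higher and 1 lower, against 54.9% and 16.6% of all genes, and Psmb9 turned to 0.27. Ly6a differed in the direction of most of these genes and Ly6e in the opposite one under both scalings.

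Genes that build and attach the GPI anchor, on which Ly6 proteins depend, moved in both directions. Of 26 tested, 6 were higher, 5 lower and 15 not called, with a median log2 difference of -0.00041, and with library totals 13 were higher and 1 lower, so the split depends on the scaling. Of all genes tested, 63.1% were called by the first fit and 71.5% with library totals. Pgap1, which remodels the anchor after attachment, had the largest rise (log2 difference 2.31, SE 0.50, adjusted p = 0.0058) from low levels of 1.44 and 1.85 CPM against 0.188 ± 0.0781. Gpaa1 and Pigk, subunits of the transamidase that attaches the anchor, had log2 differences of -0.84 and -0.81, and with library totals Pigk was no longer called (-0.27, adjusted p = 0.088).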

How the data were processed

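Bone marrow cells were sorted and sequenced with the Chromium Single Cell 3′ kit (version 2). The authors combined consecutive sequencing runs and deposited raw UMI counts per gene and cell. The submitters' processing notes name Cell Ranger 1.3 and 2.1, Seurat 2.3.4 and the build mm10, without saying which was used for what. All cells were kept, and no column was left out.

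The 6 genes and the gene lists were chosen with earlier results of these data known. Counts were summed per library and tested in R 4.3.3 by the quasi-likelihood method of edgeR 4.0.16 (TMM scaling, filterByExpr), with DESeq2 1.42.0 as an alternative. The script was tested on simulated data. Fits used the 2 reporter-positive against the 3 Lin-kit+ libraries, with 1 library per ZsGreen-positive gate, so that gate and library cannot be told apart within the reporter-positive group.

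For classes, counts scaled to the median total were log-transformed, and 2000 variable genes without Ly6 genes and Fgd5 gave 20 principal components, 15 neighbours and Leiden clusters at resolution 1 (scanpy 1.11.5, leidenalg 0.10.2). A class name needed 3 markers with a fold of 2 that were detected in 5% of cells. No name was given where another class had more of its markers among the leading genes of the cluster. The same held for shallow clusters with no marker of their own among these genes. The Vcam1-led and Siglech-led clusters had no name because Vcam1 was listed as a macrophage marker and Siglech as a dendritic one. Doublets were called with Scrublet. The named genes were the 6 members, the 3 genes most like each member with at least 100 UMIs in Lin-kit+ cells, up to 3 genes each way per list, and Kit, Slamf1, Cd48 and Fgd5. Mki67, Procr, Hlf, Dntt, Il7r, Jchain, Mzb1, Xbp1 and Sdc1 were chosen after their values were seen.

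Depth ran from 2166655 to 36080242 UMIs per library. Intervals are exact 95% Poisson or binomial ones, except that intervals of thinned shares are 95% Wilson score intervals. All cover counting error only, and a count of 0 was read as up to 3 counts. Alternatives covered the test, scaling, filters, doublets, cell numbers, clustering, thinning and each library left out.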

Additional observations from a re-analysis of the deposited data

How the results depend on the processing

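Of the 13 alternatives, the number of genes past the threshold (7567) ranged from 5922 to 8579, and from 5964 to 7668 with 1 library left out. The calls and directions of Ly6a, Ly6e, Ly6c1 and Ly6c2 held under all of them, with log2 differences of 3.64 to 4.27, -1.04 to -0.41, -9.77 to -2.10 and -12.16 to -8.03. Ly6d lost its call with DESeq2 (-3.28, adjusted p = 0.073). Ly6g gained one without Fgd5+, which leaves 1 reporter-positive library at 0, and without the reporter-positive cells outside the HSC-like clusters (-7.44), the latter chosen after seeing the data, as was leaving out B-lymphoid-like cells. With single libraries left out Ly6g ranged from -7.64 to -1.13, and it was not tested with equal cell numbers or without library b or c, where it fell under the filter. Ly6d ranged from -10.78 to -2.14. The extreme values of Ly6c1, Ly6d and Ly6g come from libraries at 0. The class with the highest level was the same for 5 or 6 of the 6 members in all 9 alternatives. The exception was Ly6c2, which was highest in monocyte-like cells at resolution 0.5 and without library a. Thinning lowered the shares of cells, and the cell filter moved the ratios between the reporter-positive gates within their intervals. No ratio could be formed for Ly6c1, Ly6d and Ly6g, which were at 0 in one gate. No paired analysis was possible because the labels give the groups no shared replicate numbers. Depth limits the members with few UMIs: Ly6c1, Ly6d and Ly6g had 9, 9 and 4 UMIs in the reporter-positive libraries.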

Other observations

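Ly6k and Ly6i, which lie between the members on chromosome 15, had their highest level in the same 25 B-lymphoid-like cells. Ly6k, whose product is otherwise known from male germ cells, was at 259, 463 and 956 CPM in libraries a, b and c, against 3.73 CPM over all other Lin-kit+ cells. Its 50 UMIs came from 7 of the 25 cells, with up to 25 in 1 cell. Ly6i had 9 UMIs in 6 of these cells and was at 194, 139 and 79.7 CPM. Of the 86 Ly6i UMIs of all Lin-kit+ cells, 51 were in monocyte-like cells, and the reporter-positive libraries held no Ly6i UMI.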
